A study of Mus musculus with 4 samples.

Results

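The transcripts of 10 genes that write, copy, remove or protect DNA methylation were followed: Dnmt1, Dnmt3a, Dnmt3b, Dnmt3l, Tet1, Tet2, Tet3, Uhrf1, Dppa3 and Zfp57. They were taken by gene symbol, and all 10 were found, each on 1 row, among the 27115 genes of the table. All 10 also passed the filter on low counts, which kept 16801 genes. The embryos were mouse 2-cell embryos in culture at day 2, sequenced as 2 control libraries of genotype WT and 2 libraries of genotype Trim75 OE, in which the tripartite motif gene Trim75 was overexpressed. The title of the study places Trim75 among maternal factors of zygotic genome activation, when the embryo begins to transcribe its own genes, and the comparison sets embryos with more Trim75 against controls. The sources used here do not give the mouse strain, the embryos per library, how the excess was delivered or whether control embryos were handled in the same way. Since no label states that libraries of 1 group are from different embryo pools, p-values refer to how far these libraries lie apart, a spread that may be technical.

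In mammals, methyl groups on cytosines of CpG pairs are set by the de novo enzymes DNMT3A and DNMT3B, with the catalytically inactive partner DNMT3L, and are copied after DNA replication by DNMT1, which UHRF1 brings to half-methylated sites. TET enzymes oxidise methylcytosine, which leads to its loss through replication or repair. Most methylation of the gametes is lost during cleavage, while imprinted regions keep theirs with the help of ZFP57. At the mouse 2-cell stage many of these transcripts and proteins are stores laid down by the oocyte, and a transcript level here is not a level of protein or of methylation. In bulk libraries such as these, fewer cells holding a transcript and less of it per cell cannot be told apart.

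The promoters of the genes on which the results turn are shown to place them on the genome and to show how differently they are furnished with CpG pairs, the substrate of these enzymes. RefSeq promoter sequences (GRCm38.p6, the assembly of mm10), each of 300 bases with 250 before and 50 after a transcript start, matched 9 of the 10 genes, with 18 starts in all; Dppa3 had no entry. CpG pairs are in capitals.
Zfp57, start 1, chr17:37000913-37001212, plus strand: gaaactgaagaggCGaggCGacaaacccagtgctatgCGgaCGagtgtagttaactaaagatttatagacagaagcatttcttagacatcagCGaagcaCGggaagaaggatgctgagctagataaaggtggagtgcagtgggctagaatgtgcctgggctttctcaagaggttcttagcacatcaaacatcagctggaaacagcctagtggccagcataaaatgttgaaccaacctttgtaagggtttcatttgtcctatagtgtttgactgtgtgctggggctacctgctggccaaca
Tet1, chr10:62887275-62887574, minus strand: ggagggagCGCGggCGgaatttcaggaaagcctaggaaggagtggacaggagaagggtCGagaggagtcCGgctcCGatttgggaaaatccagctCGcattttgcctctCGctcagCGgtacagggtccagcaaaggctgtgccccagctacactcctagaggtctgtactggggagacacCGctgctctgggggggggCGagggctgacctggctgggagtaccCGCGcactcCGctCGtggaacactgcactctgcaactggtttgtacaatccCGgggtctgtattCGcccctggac
Tet2, chr3:133544341-133544640, minus strand: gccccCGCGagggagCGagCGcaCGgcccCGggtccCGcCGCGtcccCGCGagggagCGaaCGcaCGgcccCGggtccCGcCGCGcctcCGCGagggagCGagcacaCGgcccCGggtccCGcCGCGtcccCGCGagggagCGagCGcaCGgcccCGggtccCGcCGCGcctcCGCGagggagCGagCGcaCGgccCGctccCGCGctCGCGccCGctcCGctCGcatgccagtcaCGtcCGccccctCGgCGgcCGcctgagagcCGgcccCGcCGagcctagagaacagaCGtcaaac
Tet3, chr6:83441629-83441928, minus strand: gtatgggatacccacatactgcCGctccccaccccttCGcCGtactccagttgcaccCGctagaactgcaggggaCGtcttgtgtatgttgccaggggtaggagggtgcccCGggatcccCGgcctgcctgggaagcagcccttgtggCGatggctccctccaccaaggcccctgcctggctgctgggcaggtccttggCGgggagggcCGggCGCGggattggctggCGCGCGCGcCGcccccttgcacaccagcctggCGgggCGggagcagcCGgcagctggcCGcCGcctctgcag
Dnmt1, start 1, chr9:20959839-20960138, minus strand: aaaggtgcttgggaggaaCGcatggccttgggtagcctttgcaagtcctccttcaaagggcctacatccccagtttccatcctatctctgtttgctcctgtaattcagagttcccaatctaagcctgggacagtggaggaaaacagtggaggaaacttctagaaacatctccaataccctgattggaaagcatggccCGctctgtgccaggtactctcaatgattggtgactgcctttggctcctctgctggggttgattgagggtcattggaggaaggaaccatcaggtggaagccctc
Dnmt1, start 3, chr9:20952574-20952873, minus strand: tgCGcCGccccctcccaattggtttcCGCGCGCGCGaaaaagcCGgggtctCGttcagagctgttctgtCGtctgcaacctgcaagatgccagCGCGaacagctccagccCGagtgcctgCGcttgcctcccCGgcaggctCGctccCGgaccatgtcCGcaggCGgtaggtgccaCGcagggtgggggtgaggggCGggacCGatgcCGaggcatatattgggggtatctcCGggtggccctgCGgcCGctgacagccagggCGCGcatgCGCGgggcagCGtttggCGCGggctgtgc
The Tet2 window held 57 CpG pairs, a number reached by 0.15% of the 32851 promoter windows of the table, whose median was 7. Tet1 and Tet3 held 17 and 22 CpG pairs, and 31.4% and 23.1% of windows held at least as many. The 3 starts of Zfp57 held 6, 9 and 4 CpG pairs, close to the median. Dnmt1 had windows at both ends of the range, with 2 CpG pairs at start 1 and 33 at start 3. Oocytes are known to use a Dnmt1 start of their own, but the counts are summed over each gene, so no start can be given a level. The letters TGCCGC, the core that ZFP57 binds when methylated, were looked for on both strands (as TGCCGC or GCGGCA) and stood in 3 of the 18 windows, at 2 overlapping starts of Dnmt3a and at Tet3, against 11.6% of all windows.

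Depth was 9965081 and 14599670 counted reads in control and 13349188 and 11124411 in the Trim75 OE ones. Trim75 itself measured 171 and 117 CPM (counts over the library size after TMM adjustment) in control and 919 and 990.1 CPM in Trim75 OE embryos, in the direction of the labels. Transcripts stored by the oocyte (8 markers) summed to 6814 and 7890 CPM in control and 7491 and 9112 CPM in Trim75 OE embryos, and 9 markers of the 2-cell stage to 959.6 and 1545 against 1514 and 1636 CPM. Markers of cumulus cells, of which 6 of 8 were found, summed to 0.75 to 12.8 CPM in control and 0.60 to 12.8 CPM in Trim75 OE libraries. The 1 sperm marker of 6 that was found, Prm2, lay between 0 and 19.9 CPM. The other markers of those lists were not analysed here. Fibroblast markers (6 of 6 found) summed to 9.76 and 10.2 CPM in control and 16.3 and 20.6 CPM in Trim75 OE embryos, and markers of later embryonic lineages (6 of 6) to 9.08 and 22.8 against 32.0 and 61.7 CPM. The last sums moved with the group, and their part in the values below was not tested. In Trim75 OE replicate 2, 1 marker of later lineages gave 46.9 of the 61.7 CPM. In each other library, 2 of those 6 markers had 0 reads. A single oocyte-stored marker reached 6224 CPM in its highest library, so that sum also rests largely on 1 gene there.

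None of the 10 transcripts passed the test between Trim75 OE and control embryos. In the quasi-likelihood test of edgeR, adjusted by Benjamini-Hochberg over all genes, 0 of 16801 passed the threshold of 0.05 (0.0%), and the lowest adjusted p among the 10 was 0.36, for Zfp57. Trim75 itself, with a log2 fold change of 2.73 ± 0.28 (SE), did not pass either. Its adjusted p was 0.32 in edgeR, as low as any gene reached, and 5.2e-14 in DESeq2. A count of 0 in edgeR therefore does not show that a gene is unchanged. At an unadjusted p under 0.05, 1 of the 10 was counted, Zfp57, on the lower side, where 3.53% of all genes were lower and 7.71% higher at that level. DESeq2, run as an alternative, called 0 of the 10 against 5.51% of all genes it tested. Of the 10 values, 3 were higher and 7 lower in Trim75 OE embryos, with a median log2 fold change (log2FC) of -0.22 against 0.03 over all genes tested. Both Trim75 OE libraries lay above both controls for 2 of the 10, Dnmt3l and Tet3, and below them for 1, Zfp57. Over all genes tested these shares were 24.0% above and 19.6% below, so the count among the 10 was not above the background. With 2 libraries against 2, an exact permutation test of a single gene cannot give a two-sided p under 0.33.

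**Figure D1:**
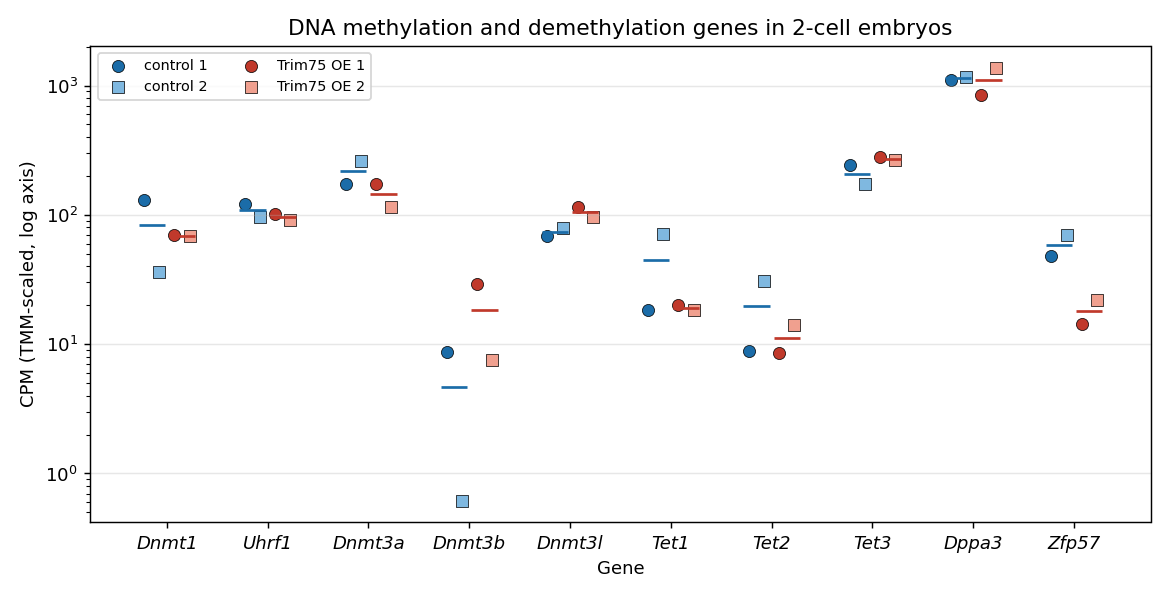
Level of each of the 10 transcripts in each library, in TMM-scaled CPM on a log axis; points are libraries and short lines are group means (n = 2). Dppa3 stands at 844 CPM or more in each library, Zfp57 is lower in both Trim75 OE libraries, control replicate 2 stands apart from the other 3 libraries for Dnmt3b, Tet1 and Tet2, and the 2 controls lie on either side of the Trim75 OE pair for Dnmt1.

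Per exon length, the 10 transcripts covered more than 3 orders of magnitude, and Dppa3 was the highest in 4 of 4 libraries. The authors' FPKM values, which divide reads by exon length and library total, are used for this order, since CPM values cannot be compared between genes of different length. The FPKM of Dppa3 was 1283 and 1307 in control and 932 and 1476 in Trim75 OE embryos. Dnmt3l (23.7 to 37.6 FPKM over the 4 libraries) and Uhrf1 (20.6 to 29.4) came next, with ranges that overlap. Tet3 (10.3 to 16.5), Dnmt3a (6.65 to 15.8), Dnmt1 (4.89 to 18.5) and Zfp57 (3.74 to 18.4) followed, and their ranges overlap so far that no order among these 4 stands beyond the spread. Dnmt3b (0.12 to 5.63), Tet1 (1.13 to 4.58) and Tet2 (0.497 to 1.81) had the lowest means over the 4 libraries. The ranges of Dnmt3b and Tet1 overlap that of Zfp57, and the range of Dnmt3b also overlaps that of Dnmt1. In Trim75 OE replicate 1, Dnmt3b lay above Zfp57 (5.63 against 3.74). Tet2 was the lowest of the 10 in 3 libraries and Dnmt3b in control replicate 2. Annotated exon lengths of Tet1, Tet2, Tet3 and Dnmt3a run from 15457 to 16870 bases, and an isoform with a shorter end would have its per-length level understated.

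Zfp57, the KRAB zinc finger factor that holds methylation at imprinted regions, had the lowest adjusted p of the 10. The gene (ENSMUSG00000036036) lies on the plus strand of chromosome 17 from 37001163 to 37010635 (mm10), and the window at its start 1 is printed above. It had 498 and 1015 reads in control and 189 and 234 reads in Trim75 OE libraries, which is 48.0 and 69.6 CPM against 14.4 and 22.0 CPM. The groups did not overlap: the lower control library had more than 2 times the CPM of the higher Trim75 OE one. The means were 58.8 ± 15.2 CPM and 18.2 ± 5.39 CPM (SD, n = 2), a log2FC of -1.69 ± 0.52 (SE) with a 95% interval of -3.10 to -0.29, or 3.24-fold lower. In edgeR the p was 0.028 and the adjusted p over all genes 0.36, and in DESeq2 the adjusted p was 0.068. A log2FC at least as low was seen for 6.80% of all genes tested. The direction held under each alternative run, with log2FC values of -2.03 to -1.40 when 1 library was left out.

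Trim28, the corepressor that ZFP57 recruits to imprinted regions and itself a maternal factor, had values that lay the same way. It was named after its values were seen. It measured 99.6 and 138 CPM in control and 59.8 and 54.7 CPM in Trim75 OE embryos, so its groups did not overlap either. The log2FC of Trim28 was -1.05 ± 0.33 (SE), with an adjusted p of 0.37 in edgeR and 0.14 in DESeq2. Of the 12 listed genes of imprint protection and KRAB-directed repression, 9 had higher and 3 lower values, with a median log2FC of 0.20. Both Trim75 OE libraries lay above both controls for 4 of the 12 (Cbx1, Nsd1, Zfp445 and Zfp42; 33.3%, against 24.0% of all genes) and below them for 1, Trim28 (8.33%, against 19.6% of all genes). The most abundant of that list were the insulator factor Ctcf, at 221 ± 16.0 and 223 ± 74.0 CPM, and the histone methyltransferase gene Nsd1, at 141 ± 7.07 and 174 ± 13.7 CPM (SD, n = 2). The log2FC of Ctcf, 0.01, had no stable sign and was -0.064 when scaled by total counts alone.

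Dnmt1, the maintenance methyltransferase, differed 3.63-fold between the control libraries. The gene (ENSMUSG00000004099) is on chromosome 9, minus strand, from 20907209 to 20959888. It had 1358 and 527 reads in control and 918 and 724 in Trim75 OE libraries, which is 131 and 36.1 CPM against 69.8 and 68.0 CPM. Both Trim75 OE libraries, which were almost equal, lay between the 2 controls. The log2FC of Dnmt1 was -0.28 ± 0.68 (SE), with a 95% interval of -2.11 to 1.55 and an adjusted p of 0.96 (edgeR). It was 0.92 without control replicate 1 and -0.93 without control replicate 2, so its direction rested on which control library was used.

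Uhrf1, whose product finds half-methylated sites after replication and brings DNMT1 to them, was even across the libraries. The gene (ENSMUSG00000001228) lies on the plus strand of chromosome 17 from 56303321 to 56323486. It had 1249 and 1398 reads in control and 1330 and 974 in Trim75 OE libraries, or 121 and 95.9 CPM against 101 and 91.5 CPM. The groups overlapped, and the highest library stood less than 1.5 times above the lowest. Its log2FC was -0.17 ± 0.29 (SE), with a 95% interval of -0.96 to 0.62 and an adjusted p of 0.95 (edgeR). Gm5648, a processed pseudogene on chromosome X that matches the Uhrf1 transcript at 98.3% identity over 1590 bases, had 277, 120, 287 and 134 reads in the same order of libraries, so reads could be split between the 2 rows. With its reads added, the log2FC of Uhrf1 was -0.15. The ratio of Uhrf1 to Dnmt1 in FPKM was 1.59 and 4.59 in control, with 2.51 and 2.33 in Trim75 OE embryos.

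Dppa3, also called Stella, encodes the oocyte protein that binds UHRF1 and keeps it from chromatin, and it shields the maternal genome from oxidation in the zygote. The gene (ENSMUSG00000046323) lies on the plus strand of chromosome 6 from 122626410 to 122630272. It had 11409 and 17023 reads in control and 11098 and 14650 in Trim75 OE libraries, which is 51.0% to 66.4% of the reads of all 10 genes. In CPM these were 1101 and 1167 against 844 and 1377. The controls lay between the 2 Trim75 OE libraries, which were the lowest and the highest of the 4. The means were 1134 ± 46.9 and 1110.3 ± 377 CPM (SD, n = 2), a log2FC of -0.03 ± 0.30 (SE) with a 95% interval of -0.83 to 0.77 and an adjusted p of 0.99 (edgeR). The sign turned without control replicate 2 (0.01) and without Trim75 OE replicate 1 (0.25). Dppa3-ps, a transcribed processed pseudogene on chromosome X, matches Dppa3 at 98.2% identity over all 451 bases of its annotated transcript, and it had 5173 and 7733 reads in control and 5586 and 7002 in Trim75 OE libraries. It took 31.2% to 33.5% of the reads of both rows in each library. This share was nearly the same in the 4 libraries, and whether those reads came from the pseudogene or from Dppa3 cannot be told from the counts. Adding the reads of Dppa3-ps and of the near-silent copy Gm47576 gave a log2FC of 0.0025 for Dppa3, with the sign turned and the size close to 0. The 95% interval of the Dppa3 row, unadjusted, lay inside a 2-fold difference in either direction. It refers to the spread of these 4 libraries, which may be technical, and not to a spread between embryo pools.

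The de novo genes did not move as 1 group. Dnmt3a, the de novo enzyme of the oocyte, lies on the plus strand of chromosome 12 from 3806007 to 3914443 (ENSMUSG00000020661). It had 1781 and 3832 reads in control and 2267 and 1231 in Trim75 OE libraries, or 171.8 and 263 CPM against 172.4 and 116 CPM. One Trim75 OE library met the lower control almost exactly, and the other was the lowest of the 4. The log2FC of Dnmt3a was -0.59 ± 0.36 (SE), with a 95% interval of -1.56 to 0.38 and an adjusted p of 0.70 (edgeR). With scaling by total counts alone, both Trim75 OE libraries lay below both controls, which made 2 of the 10 lower in that scaling, with 21.5% of all genes.

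Dnmt3l, the cofactor that stimulates DNMT3A in the growing oocyte and has no methyltransferase activity of its own, had higher values in both Trim75 OE libraries. It lies on the plus strand of chromosome 10 from 78041947 to 78063622 (ENSMUSG00000000730). It had 707 and 1162 reads in control and 1501 and 1026 in Trim75 OE libraries, which is 68.2 and 79.7 CPM against 114 and 96.4 CPM. The groups did not overlap, with means of 73.9 ± 8.10 and 105 ± 12.5 CPM (SD, n = 2). Its log2FC was 0.51 ± 0.30 (SE), a 1.42-fold difference, with a 95% interval of -0.31 to 1.33 and an adjusted p of 0.69 (edgeR). It stayed between 0.36 and 0.63 when 1 library was left out. Within each library, the ratio of Dnmt3l to Dnmt3a in FPKM was 2.21 and 1.69 in control and 3.69 and 4.64 in Trim75 OE embryos. This ratio does not depend on how the libraries are scaled, and its groups did not overlap; the ratio was formed after the values were seen.

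Dnmt3b, the de novo enzyme of the embryo after implantation, had the widest interval of the 10. It lies on the plus strand of chromosome 2 from 153649450 to 153687730 (ENSMUSG00000027478). It had 90 and 9 reads in control and 384 and 80 in Trim75 OE libraries, or 8.68 and 0.62 CPM against 29.2 and 7.52 CPM. One control lay above one Trim75 OE library, and the controls themselves differed 14.1-fold. Its log2FC was 1.98 ± 1.59 (SE), with a 95% interval of -2.29 to 6.25 and an adjusted p of 0.81 (edgeR). It was 4.86 without control replicate 1 and 0.68 without Trim75 OE replicate 1. Dnmt3b was the 1 gene of the 10 that DESeq2 called in any setting, without control replicate 1 (adjusted p = 0.0076), where the control group was the library with 9 reads and 12.2% of all genes tested were called higher. Dnmt3c, a rodent duplicate of Dnmt3b known from the male germline, matches it at 93.3% identity over 1655 bases and had 0 and 0 reads in control and 17 and 33 in Trim75 OE libraries. With 3 reads over the control group put in place of 0, Dnmt3c was 17.5-fold higher in Trim75 OE embryos. That figure leaves out the spread between libraries, so it is not a lower limit. With 0 reads in both controls, the size of the edgeR log2FC of Dnmt3c is not set by the data. Its 95% interval of 2.98 to 12.5 (adjusted p of 0.32, edgeR) is therefore no measure of that size. Dnmt3c passed the filter on low counts only through the Trim75 OE group. With its reads added, the log2FC of Dnmt3b was 2.15.

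**Figure D2:**
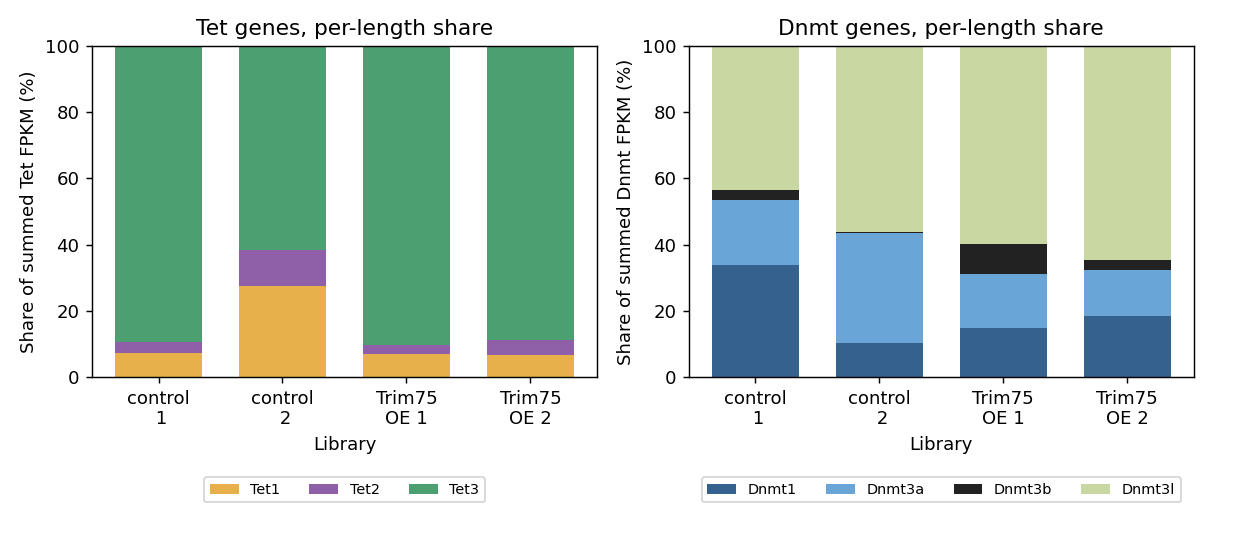
Share of each gene in the summed FPKM of the 3 Tet genes (left) and of the 4 Dnmt genes (right), in percent, 1 bar per library. Tet3 makes up 88.7% to 90.3% of the Tet sum in 3 libraries and 61.7% in control replicate 2, and Dnmt1 takes 33.8% of the Dnmt sum in control replicate 1 and 10.3% in control replicate 2.

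Tet3, the oxidase that the oocyte stores and that acts on the zygote's genome, was by far the most abundant of the Tet transcripts and had slightly higher values in both Trim75 OE libraries. It is on chromosome 6, minus strand, from 83362373 to 83459084 (ENSMUSG00000034832). It had 2497 and 2505 reads in control and 3678 and 2806 in Trim75 OE libraries, or 241 and 172 CPM against 279.7 and 264 CPM. The groups did not overlap, but the gap between them was smaller than the distance between the controls. The log2FC of Tet3 was 0.40 ± 0.27 (SE), with a 95% interval of -0.32 to 1.12 and an adjusted p of 0.74 (edgeR), and it kept its sign with each library left out (0.17 to 0.65).

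Tet1 and Tet2, better known from embryonic stem cells, were high in 1 control library alone. Tet1 (ENSMUSG00000047146) is on chromosome 10, minus strand, from 62804570 to 62908996, and Tet2 (ENSMUSG00000040943) on chromosome 3, minus strand, from 133463679 to 133545139. Tet1 had 189 and 1033 reads in control and 264 and 194 in Trim75 OE libraries, or 18.2 and 70.8 CPM against 20.1 and 18.2 CPM. Control replicate 1 and both Trim75 OE libraries were close to each other, and control replicate 2 stood 3.88-fold above control replicate 1. Tet2 had 92 and 446 reads in control and 112 and 149 in Trim75 OE libraries, or 8.88 and 30.6 CPM against 8.52 and 14.0 CPM. It too was highest in control replicate 2, 3.44-fold above control replicate 1. The log2FC values were -1.22 ± 0.81 (SE) for Tet1 and -0.81 ± 0.95 (SE) for Tet2, with adjusted p of 0.74 and 0.90 (edgeR). Both turned sign without control replicate 2, to 0.07 for Tet1 and 0.34 for Tet2.

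Although the Tet genes differed in their parts, their sum per length was close to even. Summed over Tet1, Tet2 and Tet3, the FPKM was 16.8 and 16.7 in control and 18.3 and 17.0 in Trim75 OE embryos. In control replicate 2, Tet3 made up 61.7% of that sum, Tet1 27.5% and Tet2 10.9%. In the other 3 libraries Tet3 made up 88.7% to 90.3%, Tet1 6.62% to 7.31% and Tet2 2.72% to 4.66%. The ratio of Tet3 to Tet1 in FPKM was 2.25 in control replicate 2 and 12.2 to 13.4 in the others. These shares are ratios within a library, so they do not depend on scaling. The sum of the 4 Dnmt genes was 54.7 and 47.4 FPKM in control and 62.8 and 47.7 FPKM in Trim75 OE embryos, with Dnmt3l the largest part in each library (43.4% and 56.2% against 59.9% and 64.6%). The sums and shares were formed after the values were seen and carry no test.

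**Figure D3:**
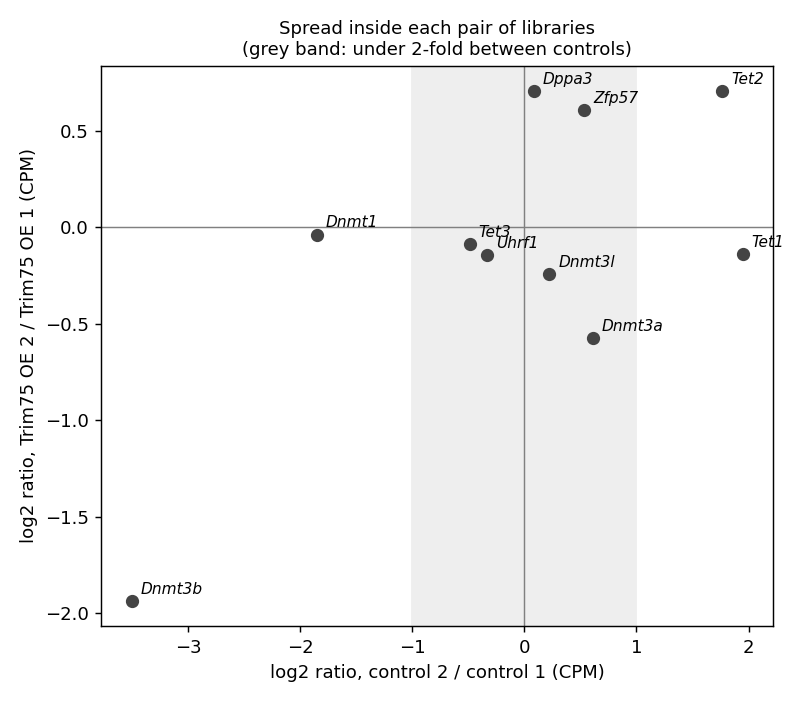
Log2 ratio of CPM between the 2 control libraries (horizontal) and between the 2 Trim75 OE libraries (vertical) for each of the 10 genes. Dnmt1, Dnmt3b, Tet1 and Tet2 lie outside the 2-fold band between the controls, and Dnmt3b alone is more than 2-fold apart in the Trim75 OE pair.

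Between the controls, Dnmt1 and Dnmt3b were higher in replicate 1 and Tet1 and Tet2 in replicate 2, each by more than 3-fold, while the other 6 genes differed by less than 2-fold. Between the Trim75 OE libraries only Dnmt3b, of the 10, differed by more than 2-fold (3.88-fold). Such distances were common in these libraries: of 12309 genes with a mean of at least 5 CPM, 41.3% differed at least 2-fold and 26.8% at least 3-fold between the controls, and 27.9% and 14.8% between the Trim75 OE libraries. The 4 of 10 between the controls were near the 41.3% of all genes at 2-fold and above the 26.8% at 3-fold. With 10 genes in all, that difference in shares was not tested. The titles of the controls carry the tag L2C, which those of the Trim75 OE libraries lack, and the labels name no batch. The codes that end the titles are consecutive within each group and differ between the groups. What these codes stand for is not stated. Any difference in handling that they mark cannot be told apart from the overexpression.

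**Figure D4:**
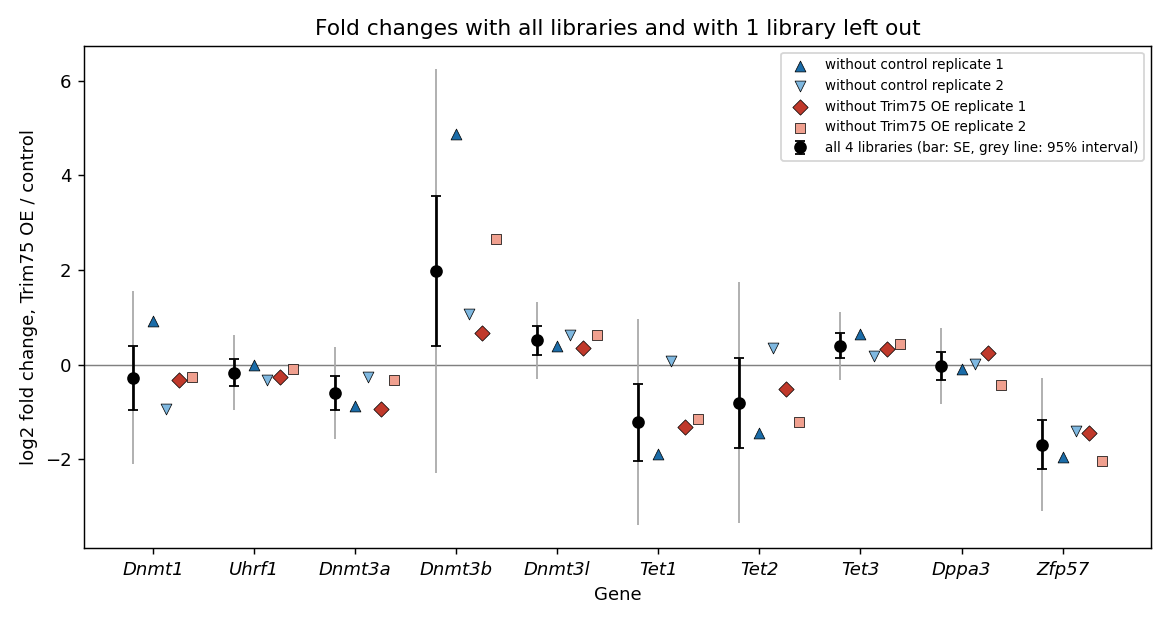
Log2FC of each gene (overexpressing over control) from edgeR with all 4 libraries (black, with SE and 95% interval) and with 1 library left out (coloured). Zfp57 lies below 0 in each fit shown, Dnmt3l, Tet3 and Dnmt3b above 0, and the points of Dnmt1, Tet1, Tet2 and Dppa3 fall on both sides.

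Around the 10 genes, 79 names of partner genes were listed in 7 groups, of which 71 could be tested. In edgeR 0 of 71 passed, with 6 higher and 5 lower at an unadjusted p under 0.05, where 7.71% of all genes were higher and 3.53% lower. Of the 6 higher, 4 (Dnmt3c, Neil2, Ahcy and Gnmt) had 2 reads or fewer in each control library and passed the filter on low counts only through the Trim75 OE group. DESeq2, which called 5.51% of all genes it tested, called 3 of the listed genes, all higher: Mat2b, Gnmt and Cxxc5. Gnmt had 2 reads in the controls and Cxxc5 had 0, with 8 and 194 reads in the Trim75 OE libraries. Both Trim75 OE libraries lay above both controls for 19 of the 71 (26.8%) and below them for 9 (12.7%), against 24.0% and 19.6% of all genes. The 19 include Dnmt3c, Neil2, Ahcy and Gnmt, so that share is raised by genes that the filter kept for their Trim75 OE reads. The median log2FC of the 71 was 0.11 (quartiles -0.32 and 0.46) against 0.03 (quartiles -0.63 and 0.77) over all genes tested; without the 4 genes it was 0.07 over the other 67, a step chosen after seeing the data.

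In a list of genes around the supply and use of the methyl donor S-adenosylmethionine, the 2 subunit genes of methionine adenosyltransferase had values on opposite sides. Mat2b, the regulatory subunit, measured 519.6 and 454 CPM in control and 1117 and 967 CPM in Trim75 OE embryos. Its groups stood far apart, with a log2FC of 1.10 ± 0.21 (SE) and an adjusted p of 0.32 in edgeR and 0.0020 in DESeq2. The DESeq2 call ended without Trim75 OE replicate 1 (adjusted p = 0.24) and without Trim75 OE replicate 2 (0.093). Mat2a, the catalytic subunit (chosen with its values known), stood at 162 and 255 CPM in control and 106 and 111 CPM in Trim75 OE embryos, a log2FC of -0.95 ± 0.32 (SE) with an adjusted p of 0.40 in edgeR. Mthfd2, an enzyme of mitochondrial folate metabolism, measured 413 ± 112 and 449 ± 18.2 CPM (SD, n = 2). Of the 11 genes of this list that were tested, 8 had higher and 3 lower values, with a median log2FC of 0.99 (quartiles -0.01 and 1.43). That median is the value of Dnph1 alone, a gene whose part in methyl donor supply was not examined. Dnph1 had 31 and 0 reads in control and 0 and 63 in Trim75 OE libraries, with a 95% interval of -7.19 to 9.16, so the median carries little weight. Of the 11, Gnmt (2 and 0 reads in control, 75 and 90 in Trim75 OE libraries) and Ahcy (0 and 1 against 39 and 20 reads) passed the filter on low counts only through the Trim75 OE group. The median of the other 9, Dnph1 still among them, was 0.12, with 6 higher and 3 lower values.

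The partners of maintenance methylation had 5 higher and 5 lower values. Uhrf2, the paralogue of Uhrf1 (chosen with its values known), stood at 39.1 and 34.4 CPM in control and 88.9 and 69.2 CPM in Trim75 OE embryos, a log2FC of 1.10 ± 0.38 (SE) with an adjusted p of 0.41 (edgeR). The most abundant of the list were Usp7, a deubiquitinase that binds UHRF1 and DNMT1, at 282 ± 47.7 and 356 ± 30.8 CPM, and Pcna, the replication clamp, at 94.1 ± 7.25 and 119 ± 18.3 CPM (SD, n = 2). In the list of methyl-CpG-binding-domain (MBD) proteins and zinc finger readers of methylated CpG, 3 of 8 tested genes had higher and 5 lower values. Its most abundant members, both of the MBD family but not known to bind methylated CpG selectively in mammals, were Mbd5 at 156 ± 124 and 175 ± 30.7 CPM and Mbd3 at 128 ± 74.4 and 83.5 ± 0.57 CPM (SD, n = 2), and both changed sign without control replicate 1.

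Partners of de novo methylation had 4 higher and 4 lower values, with a median log2FC of 0.04. The median was the same with Dnmt3c set against 3 control reads, and -0.02 without Dnmt3c. The most abundant were the histone methyltransferase genes Setd2, at 357 ± 98.3 and 345 ± 83.0 CPM, and Nsd2, at 111 ± 0.31 and 123 ± 51.6 CPM (SD, n = 2). Morc1, which silences transposons in the male germline and was named after its values were seen, had 171 and 487 reads in control and 59 and 12 in Trim75 OE libraries, a log2FC of -3.14 ± 1.12 (SE) with an adjusted p of 0.42 (edgeR). Among genes of repair and of oxidised-base removal, 6 of 13 had higher and 7 lower values, 1 of the 6 being Neil2 with 1 and 0 reads in control. Gadd45a, a stress-induced gene linked to demethylation, measured 205 and 443 CPM in control and 139 and 84.2 CPM in Trim75 OE embryos, with groups apart, a log2FC of -1.54 ± 0.50 (SE) and an adjusted p of 0.39 in edgeR and 0.060 in DESeq2. Hmces, a shield of abasic sites, measured 211 ± 92.6 and 258 ± 34.4 CPM (SD, n = 2). The list of genes that act on UHRF1 or TET proteins had 5 of 9 higher and 4 lower values, with Ddb1 at 665 ± 146 and 517 ± 71.0 CPM and Cul4b at 352 ± 7.61 and 453 ± 61.7 CPM (SD, n = 2), the adaptor and a scaffold of the CUL4 ubiquitin ligases.

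**Figure D5:**
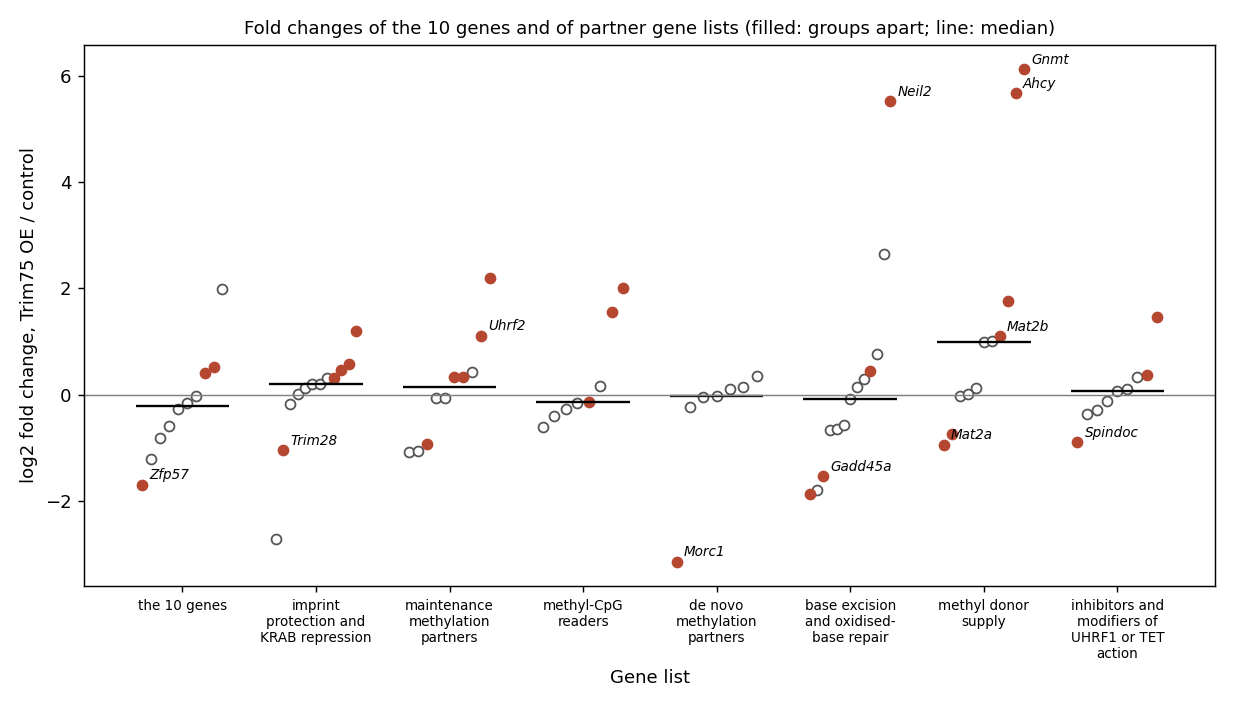
Log2 fold change (overexpressing over control, edgeR) of the 10 genes and of the tested genes of each partner list; filled points are genes whose groups do not overlap, lines are medians, and Dnmt3c, with 0 reads in both controls, is left out. Zfp57 and Trim28 lie below 0 with filled points, the lists overlap widely, and the 3 filled points above 5 (Neil2, Ahcy and Gnmt) had 2 reads or fewer in each control library.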

How the data were processed

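RNA of 4 libraries of mouse 2-cell embryos was measured. A transposase-based kit (TruePrep V2) was used, per the labels' protocols. The submitters' processing notes name HISAT2, featureCounts, FastQC and Trim Galore with mm10; the sources used here give no versions, annotation, strand or multi-mapping settings. The deposited table holds raw counts per gene and, per the file headers, FPKM values made by the authors. Counts include PCR copies, so counting error is a lower limit.

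The test on counts was edgeR (4.0.16) in R (4.3.3), with filterByExpr, TMM scaling, glmQLFit and glmQLFTest over all genes, Benjamini-Hochberg adjustment, threshold 0.05. The SE is the log2 fold change divided by the square root of the F statistic, and 95% intervals take the fit's degrees of freedom and are not adjusted. Alternatives were other scalings and filters, a replicate block, each library left out, DESeq2 (1.42.0) on all rows, and limma (3.58.1) on voom weights and on log2(FPKM + 1) or log2(FPKM + 0.1). The edgeR test was also run on simulated counts. A lone library left in a group took its spread from the other group. Positions are from GENCODE M21; copies were sought with blastn (2.17.0) at 90% identity over at least 200 bases. Figures were drawn with matplotlib (3.10.9).

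The 10 genes and the lists were chosen with earlier results of these data known. All 10 are named; of each partner list the genes past the threshold (0) and the 2 with the highest mean CPM are named, and others were chosen after their values were seen.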

Additional observations from a re-analysis of the deposited data

How the results depend on the processing

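Of the 10 genes, 6 kept the sign of their log2 fold change under each alternative run (Dnmt3a, Dnmt3b, Dnmt3l, Tet3, Uhrf1 and Zfp57). The count over all genes was 0 in each edgeR and limma setting and 885 in DESeq2, with 0 to 2378 when 1 library was left out (edgeR and DESeq2). Among the 10 genes 0 or 1 was called, the 1 being Dnmt3b in DESeq2 without control replicate 1. Among the listed partners DESeq2 called 3, and 0 to 12 were called with 1 library left out. The cause of these differences was not tested.

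The replicate numbers of the titles shared no deviation (r = 0.013 across genes between the 2 pairs, n = 4 libraries), so they were not taken as pairs. With the numbers as a replicate block, edgeR called 0 genes, the log2 fold change of Zfp57 was -1.70, and those of Dnmt1 and Ctcf turned to 0.00028 and -0.027. Dnmt1 also turned with voom weights (0.11), Dppa3 with its copies added (0.0025, an alternative chosen after seeing the data), and Ctcf with total counts (-0.064), voom weights (-0.043), log2(FPKM + 1) (-0.10) and log2(FPKM + 0.1) (-0.10).

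With 1 library left out, in edgeR or DESeq2, log2 fold changes with both signs ranged from -0.93 to 0.92 for Dnmt1, -1.92 to 0.078 for Tet1, -1.48 to 0.35 for Tet2, -0.42 to 0.26 for Dppa3, -0.37 to 0.30 for Ctcf, -1.12 to 0.13 for Mbd3, -0.51 to 1.36 for Mbd5, -0.39 to 0.53 for Nsd2, -0.35 to 0.27 for Setd2, -0.10 to 0.82 for Hmces and -0.14 to 0.42 for Mthfd2. Dnmt3b, with 9 reads in 1 control library, kept its sign but ranged from 0.68 to 4.87. The cause of that range was not tested.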
